A study of Homo sapiens with 20 samples.

Results

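The wounding response of GCN2KO keratinocytes was measured by RNA-seq in 5 unwounded cultures and in 5 cultures harvested 6 h after high-density wounding (HDW), 10 of the 20 libraries of the series. Genes were kept where their counts passed a low-count filter over these 10 libraries, which left 15791 of the 57500 genes listed, and the groups were compared unpaired, 5 against 5. All cultures were NTERT cells, an established line of human keratinocytes immortalized with hTERT, that were grown to confluence and induced to differentiate before wounding. Both groups carried the same Cas9 edit of EIF2AK4, the gene for the eIF2 kinase GCN2, as an early passage pool of edited cells and not as 1 clone, and the sources used here do not say which of the 2 targeted exons was edited in the sequenced pool. In HDW, pipet tips were drawn across the plate in perpendicular directions to leave a grid of scratches. The other 10 libraries, 5 unwounded and 5 HDW cultures of WT NTERT cells given a control guide RNA, are used only to show where the response differed. Nothing states whether same-numbered cultures were handled together, so p-values measure the spread between these libraries, part of which may be technical.

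Keratinocytes that border a wound flatten, detach part of their matrix contacts and move into the gap as a connected sheet. As background, they release EGF receptor ligands and signal through ERK, AP-1, SRF and YAP, and they make matrix proteases, integrins, laminins and the keratins of activated epidermis. GCN2 is a kinase that senses uncharged tRNA and phosphorylates eIF2, after which, in many stresses, the transcription factor ATF4 raises genes for amino acid synthesis and transport. In NTERT cells, however, the study found that ATF4 protein rose after wounding with or without GCN2, and that loss of ATF4 left wound closure unchanged. The comparison addresses which transcript changes a scratch brings about in cells edited to lose that kinase.

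EIF2AK4 mRNA was counted first, as the check of the genotype. On a scale shared by all 20 libraries it lay at 806 to 962 normalized read counts in the 5 unwounded and 809.8 to 951 in the 5 HDW libraries of GCN2KO cells, against 3980.2 to 4555 in the 10 WT libraries. Wounding of GCN2KO cells moved it by -0.025 on the log2 scale (SE 0.0725, adjusted p = 0.829 in edgeR's test). The 10 libraries held 17042848 to 34343328 counts on genes. Keratinocyte identity was plain in each of them, since the summed level of 11 keratinocyte markers was 27180 to 32923 CPM (counts scaled to a library of 1e6) in unwounded and 34407 to 36878 CPM in HDW libraries, and 5 of them were higher after HDW by adjusted p, as 11.9% of all tested genes were. Without unwounded libraries 3 and 5 the number of these markers called higher was 1. Markers of other cell types were low. Of 9 fibroblast, 7 melanocyte, 6 endothelial and 9 leukocyte markers, 3, 3, 1 and 2 passed the filter and none changed with HDW by edgeR's adjusted p. TYR, SOX10, NKG7, CD207 and CD1A had no count in any of the 10 libraries, and the summed levels reached at most 89 CPM for the fibroblast and 44.4 CPM for the leukocyte list.

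Some features of the libraries moved with the groups. Mitochondrially encoded genes took 0.405% to 0.551% of the counts in unwounded and 0.663% to 0.718% in HDW libraries, with no overlap (two-sided exact permutation p = 0.00794, adjusted over 2 such tests 0.0159). Genes with long transcripts, by the longest annotated transcript of each gene, read higher after HDW and genes with short ones lower. The median log2 fold change was -0.14 in the 20% of genes with the shortest transcripts (up to 1785 bases) and 0.14 in the 20% with the longest (from 5882 bases), against -0.020 and 0.018 in WT cells. Unwounded libraries 3 and 5 stood furthest out. Their longest transcripts lay -0.22 and -0.18 on the log2 scale from the mean of the 10 libraries, while the HDW libraries lay between 0.055 and 0.124 and overlapped unwounded library 2 at 0.069 (exact permutation p = 0.0159). What gave rise to the trend was not tested. A fit with a smooth trend on transcript length taken out of each library is therefore given beside gene groups with long or short transcripts.

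**Figure D1:**
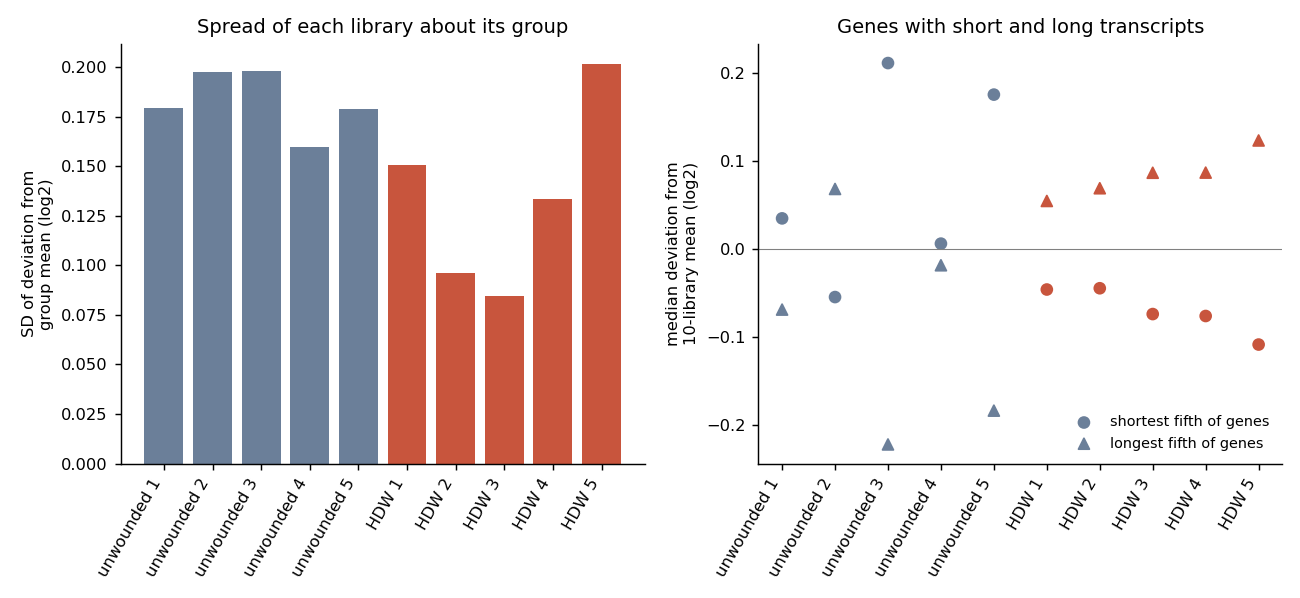
The left panel plots, for each of the 10 GCN2KO libraries, the SD over 12299 genes of the deviation from the mean of its group (log2 scale), which runs from 0.0846 in HDW 3 to 0.202 in HDW 5. The right panel plots the median deviation from the 10-library mean for the 20% of genes with the shortest (circles) and the longest (triangles) transcripts, with unwounded 3 and 5 furthest from 0.

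HDW raised more genes than it lowered in GCN2KO cells at the study's thresholds for a DE gene, which ask for a 2-fold change (1 on the log2 scale) and an adjusted p up to 0.05. Higher DE genes numbered 75, 0.475% of the genes tested, and lower DE genes 31, or 0.196%. By adjusted p alone the numbers were 1880 higher and 1706 lower genes (11.9% and 10.8%), so the response was mostly made of changes under 2-fold. The HDW libraries lay above every unwounded library for 60 of the higher DE genes and below every one for 20 of the lower DE genes, where 8.02% and 7.07% of all tested genes do so in that direction. Protein-coding genes made up 58 of the higher and 16 of the lower DE genes, and long noncoding RNAs 10 and 12. The shares of these types among all tested genes are not given here, so no difference in kind is read from these counts. The median of the mean counts was 41.3 for the higher and 13.8 for the lower DE genes, against 472 over all genes tested. Among genes with a mean of at least 50 counts, 37 higher and 3 lower DE genes were left, 0.301% and 0.0244% of such genes. RNA was taken from whole cultures, so more cells of a kind and more RNA per cell cannot be told apart in any of these values.

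**Figure D2:**
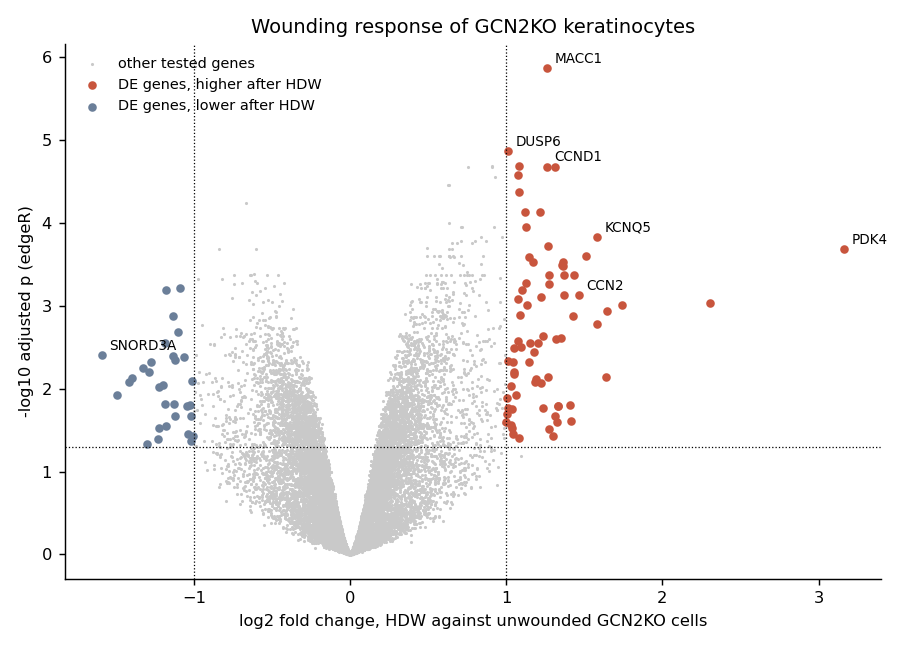
Each point is 1 of the 15791 tested genes, with the log2 fold change of HDW against unwounded GCN2KO cells on the horizontal axis and −log10 of the edgeR adjusted p on the vertical axis. Dotted lines mark the thresholds, and the 75 higher DE genes reach further from 0 (up to 3.16) than the 31 lower ones (down to -1.59).

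Of the higher DE genes, MACC1, DUSP6, FOSL1, CCND1, MYEOV, VGLL3 and INHBA had the smallest adjusted p, in that order. MACC1, a regulator of the MET receptor gene, had 1381, 1538, 1387, 1589.6 and 1335 normalized read counts in unwounded libraries 1 to 5 and 3734, 3642, 3367, 3599 and 3004 in HDW libraries 1 to 5, a log2 difference of 1.26 (SE 0.0764, adjusted p = 1.38e-06 in edgeR's test). The cyclin D1 gene CCND1, which drives entry into S phase, had 2037, 1785, 1371, 1984 and 1507 counts unwounded and 4202, 4481, 3706, 3821 and 4633 after HDW (1.26, SE 0.109, adjusted p = 2.12e-05). INHBA, which encodes the activin A subunit, rose from 2145, 2506, 2380.1, 2651 and 2031 to 5870.4, 5079.9, 4788, 5179 and 3916 counts (1.08, SE 0.103, adjusted p = 4.22e-05). In MACC1, CCND1 and INHBA the lowest HDW library stood above the highest unwounded one, and HDW library 5 was the lowest of its group for MACC1 and INHBA but the highest for CCND1.

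VGLL3, a cofactor of TEAD transcription factors, went from 1068, 1254, 1051, 1212 and 962 to 2574, 2487, 2398, 2343 and 1865 normalized read counts (log2 fold change 1.07, SE 0.0955, edgeR adjusted p = 2.67e-05). PTGS2, the inducible cyclooxygenase of prostaglandin synthesis, went from 834, 959, 1067, 997 and 855 to 2524, 2332, 1894, 1981 and 1536 counts (1.12, SE 0.119, adjusted p = 0.000112). The AP-1 subunit gene FOSL1 went from 231, 237, 238, 260.5 and 211 to 559, 542, 475, 449 and 460.5 (1.08, SE 0.0886, adjusted p = 2.07e-05). HDW library 5 held the lowest value of its group for VGLL3 and PTGS2 but not for FOSL1, and the groups stayed apart for each. Less strongly expressed genes moved as far. The adhesion gene AJAP1 rose by 1.22 from 223–337 to 564–785 counts, MYEOV by 1.31 from 105–142 to 269–348, and the chromatin gene BEND3 by 1.12 from 83.7–131 to 224–246 (edgeR adjusted p = 7.34e-05, 2.12e-05 and 7.34e-05). The potassium channel gene KCNQ5 rose by 1.58 from 40.1–66.3 to 117–221 counts, and the inflammasome family gene NLRP10 by 1.26 from 31.1–48.5 to 77.7–95.3 (adjusted p = 0.000147 and 0.000189). With the length trend taken out the log2 fold changes were 1.09 for MACC1, 1.01 for BEND3 and 1.47 for KCNQ5, while VGLL3 (0.87), AJAP1 (0.98) and INHBA (0.997) fell under 2-fold and stayed past the adjusted p.

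The lower DE genes were a mixed set in which the receptor gene FGFR3 had the highest counts of those named here. FGFR3, a receptor of fibroblast growth factors that keratinocytes express as they leave the basal layer, had 823, 527, 481, 491 and 506 normalized read counts in unwounded and 173, 217, 238, 191 and 418 in HDW libraries (-1.18, SE 0.216, edgeR adjusted p = 0.00284). Unwounded library 1 and HDW library 5 were both far above the rest of their group, yet the groups did not overlap. LINC01376 had 189, 129, 177, 106 and 148 counts unwounded and 69.4, 61.1, 74.3, 76.2 and 73.4 after HDW (-1.09, SE 0.153, adjusted p = 0.000611). CAPNS2, which encodes a calpain small subunit, had 101, 82, 74, 52.8 and 103 and 25.7, 38.8, 40.6, 41.6 and 51.6 counts (-1.06, SE 0.209, adjusted p = 0.00413). The margin was narrow for CAPNS2, where unwounded library 4 and HDW library 5 were about 1 count apart. With the length trend taken out LINC01376 (-0.99) and CAPNS2 (-0.88) were under 2-fold.

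The other lower DE genes named by the same rule had low counts. The iron exporter gene SLC40A1 fell from 30.3–40.1 to 13.8–17.3 normalized read counts (-1.18, edgeR adjusted p = 0.000645), SSUH2 from 30.3–44 to 13.9–21.8 (-1.13, adjusted p = 0.00134) and the peptide hormone gene SPX from 31.4–47.5 to 14.6–22.5 (-1.10, adjusted p = 0.00207). TAFA2 fell from 34.7–60.6 to 12.9–32.7 counts (-1.13, adjusted p = 0.00405), PDE9A, a cGMP phosphodiesterase gene, from 17.3–30.3 to 7.75–12.9 (-1.12, adjusted p = 0.00451) and TP53I11 from 14.7–29.98 to 5.17–12.1 (-1.32, adjusted p = 0.00558). In each of these genes the groups were apart, though often by a few counts only. SNORD3A, a small nucleolar RNA with near-identical copies that may share its reads, fell by 1.59 on the log2 scale, LINC00589 by 1.29 and LYZL4 by 1.40, with HDW ranges of 3.46 to 10.4, 3.43 to 9.92 and 1.73 to 6.05 counts (edgeR adjusted p = 0.00395, 0.00624 and 0.00741). PDK4 made the largest single change and was also weakly expressed. It encodes a kinase that shuts off pyruvate dehydrogenase, and had 1.16, 1.58, 2.67, 0.865 and 4.31 counts unwounded and 27.4, 20.7, 23.3, 19.1 and 12.9 after HDW (3.16, SE 0.367, adjusted p = 0.000209).

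**Figure D3:**
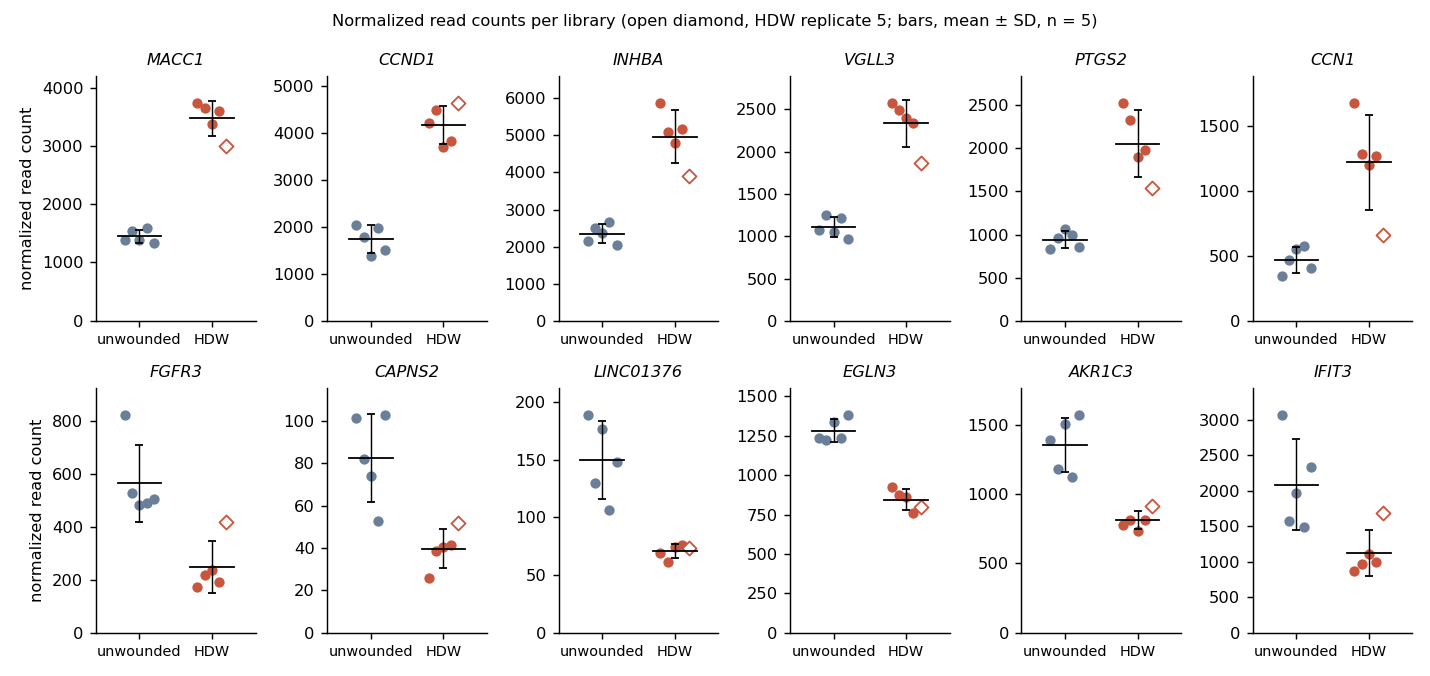
Normalized read counts of 12 genes in the 5 unwounded and 5 HDW libraries of GCN2KO cells, each panel with its own axis from 0 and with bars for the mean ± SD (n = 5). HDW replicate 5 (open diamond) is the lowest HDW library for MACC1, INHBA, VGLL3, PTGS2 and CCN1 and the highest for CCND1, FGFR3, CAPNS2, AKR1C3 and IFIT3.

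The lists of wound response genes were read next, as counts of members past an adjusted p of 0.05 in edgeR's test over all genes, where 11.9% of tested genes were higher and 10.8% lower and the median log2 fold change was -0.00097. Of 22 early response transcription factor genes, 12 rose and none fell, with a median log2 fold change of 0.29. Beside FOSL1 these included EGR1, which went from 1134, 751, 590.1, 739 and 623 to 1283, 1443, 1330.2, 1405 and 1938 normalized read counts (0.95, SE 0.16, adjusted p = 0.00186). The nuclear receptor gene NR4A2 went from 99, 115, 95.4, 124 and 72.5 to 259, 242, 227, 180.1 and 164 (1.10, SE 0.157, adjusted p = 0.000652), and FOSB from 47.5–88.4 to 98.2–137 (0.89, adjusted p = 0.00249). HDW library 5 held the highest EGR1 value and the lowest NR4A2 and FOSB values of the group, so it was not shifted the same way for all early genes. The most abundant members that did not pass were FOSL2 and JUNB, which encode AP-1 subunits like FOSL1 and FOSB. FOSL2 had 9832–13486 counts unwounded and 11524–12410 after HDW (0.028, adjusted p = 0.841). JUNB had 3593–5075 and 3341–4835 (-0.077, adjusted p = 0.628). These 2 genes are outside the counts of named genes given below.

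ERK feedback and target genes moved up in the same way. Of 17, 10 rose and none fell (median 0.31, and 0.43 without HDW library 5). DUSP6, a phosphatase that switches ERK off, 28.6% of whose exonic bases lie under another gene, went from 252, 264, 239.8, 246 and 237 to 559, 509.8, 477, 466 and 476 normalized read counts (1.01, SE 0.0764, edgeR adjusted p = 1.39e-05). The pathway inhibitor genes SPRED1, SPRED2 and SPRY4 rose by 0.55, 0.48 and 1.13 (adjusted p = 0.000888, 0.00186 and 0.000976), and SPRY4 from 44–83.1 to 107–174 counts. PHLDA1, the most abundant member that did not pass, had 7853 to 8884 counts unwounded and 8418 to 9369 after HDW (0.092, adjusted p = 0.281).

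The EGF receptor ligands did not move together. Of 11 ligand and receptor genes 2 rose and 2 fell. HBEGF, a ligand released from its membrane-bound form at wounds, had 691, 639, 635, 648 and 632 normalized read counts unwounded and 945, 1016, 815, 863 and 986 after HDW (0.51, SE 0.0731, edgeR adjusted p = 0.000645). The ligand gene NRG1 rose from 200.3–265 to 302–351 counts (0.56, adjusted p = 0.00172), and by 0.31 (adjusted p = 0.0239) with the length trend taken out. Its longest annotated transcript has 12518 bases. BTC, which encodes betacellulin, fell from 42.6–72.2 to 24.2–42.7 (-0.82, adjusted p = 0.00969). AREG, the amphiregulin gene, lay at 6425 to 9270.3 counts unwounded and 6005 to 6428 after HDW (-0.29, adjusted p = 0.034), and its adjusted p was 0.191 with the length trend taken out.

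Of the 5 keratins of activated epidermis, 3 rose, by little and from high levels. KRT6A, which keratinocytes switch on at wound edges, had 172170, 173603, 180366, 182621 and 157481 normalized read counts unwounded and 202867, 211860, 211775, 207699 and 203413 after HDW (0.26, SE 0.0667, edgeR adjusted p = 0.0149). KRT6B rose from 6123–10526 to 9868–13662 counts (0.52, adjusted p = 0.0149) and KRT6C from 699.8–789.8 to 793–963 (0.29, adjusted p = 0.0109), though these 3 genes are near-identical copies whose reads may be shared. KRT17 was at 359563 to 392498 counts unwounded and 320802 to 364404 after HDW (-0.16, adjusted p = 0.105). Of 21 differentiation genes 2 rose and 1 fell with all 10 libraries. With the length trend taken out, where 10.7% of all tested genes were higher and 10.3% lower, 7 rose and 0 fell. Without unwounded libraries 3 and 5, where 6.25% of tested genes were higher and 4.25% lower, 0 rose and 1 fell. IVL, the involucrin of the cornified envelope, had 8634, 13036, 10766, 15178 and 9124 counts unwounded and 19594, 18526, 19063, 19372 and 12921 after HDW (0.66, SE 0.151, adjusted p = 0.0091). HDW library 5 alone fell inside the unwounded range. The envelope protein gene SPRR2D rose by 0.45 (adjusted p = 0.0385), and TGM1, the transglutaminase that crosslinks such proteins, fell by 0.40 (adjusted p = 0.0352, and 0.0588 with the length trend taken out).

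Genes for attachment to the matrix changed in 1 direction. Of 23 integrin and basement membrane genes, 13 rose and none fell, with a median of 0.39. These are long genes, with a median transcript of 6540 bases, and with the length trend taken out 12 rose at a median of 0.29. ITGB8, an integrin subunit of a receptor that activates TGF-beta, had 1372, 1393, 931, 1218 and 1114 normalized read counts unwounded and 2328, 2365, 2149.9, 2137 and 2405 after HDW (0.92, SE 0.0976, edgeR adjusted p = 0.000112). The groups stayed apart, and HDW library 5 held the highest value. The type IV collagen genes COL4A1 and COL4A2 rose by 0.96 and 0.85 (adjusted p = 0.00174 and 0.00265), and by 0.86 and 0.76 with the length trend taken out. COL17A1, a hemidesmosome collagen and the most abundant member that did not pass, had a log2 fold change of 0.19 (SE 0.0868, adjusted p = 0.115).

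Proteases and plasminogen activators had 8 of 21 members higher and none lower. SERPINB2, which inhibits the plasminogen activators, had 2052, 2337, 3906, 2901 and 3003 normalized read counts unwounded and 8414, 7789.9, 6585, 7222 and 4396 after HDW (1.28, SE 0.177, edgeR adjusted p = 0.000552). The other HDW libraries lay well above HDW library 5, which was still above every unwounded one. PLAUR, the receptor that holds urokinase at the cell surface, rose from 638–778 to 868–1168 counts (0.56, adjusted p = 0.0012). ADAM8, a membrane protease gene, rose from 83.8–138 to 147–186 (0.66, adjusted p = 0.00395). The tissue plasminogen activator gene PLAT had 544 to 856 unwounded and 759 to 1538 after HDW (0.75, adjusted p = 0.00657), and its groups overlapped.

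Cytoskeletal and matricellular targets of SRF and YAP rose in 12 of 21 cases, with none lower and a median of 0.38. CCN2 and CCN1 encode secreted matricellular proteins that both factors drive. CCN1 had 345, 472, 554, 579 and 406 normalized read counts unwounded and 1681, 1288, 1206, 1275 and 659.9 after HDW (1.37, SE 0.20, edgeR adjusted p = 0.000745). CCN2 had 73.4, 128, 137, 146 and 108 and 419, 340.1, 347, 364 and 175 counts (1.46, SE 0.213, adjusted p = 0.000745). In each, HDW library 5 held the lowest value of the HDW group by a wide margin and came near the highest unwounded library. Without it the log2 fold changes were 1.53 and 1.63. THBS1, for thrombospondin 1, rose from 2612–3907 to 5079–7045 counts (0.97, adjusted p = 0.000147), and the actin gene ACTG1 from 31786–40167 to 46388–50429 (0.43, adjusted p = 0.00164). Of the small GTPases and exchange factors that regulate the actin cytoskeleton, 2 of 15 rose and 3 fell. TIAM1, an exchange factor that loads RAC1 with GTP, rose from 286–443 to 533–572 counts (0.62, adjusted p = 0.00265), and RND3, which opposes RHOA, had 3432 to 4497 unwounded and 3721 to 5857 after HDW (0.40, adjusted p = 0.0218). VAV3, another exchange factor gene, fell by 0.51 (adjusted p = 0.0199), and RHOC by 0.24 (adjusted p = 0.0258, and 0.0529 with the length trend taken out).

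Inflammatory genes rose in 12 of 25 cases and none fell, with a median of 0.32. TNFAIP3, the A20 enzyme that limits NF-kB, had 948, 803, 694, 751 and 677 normalized read counts unwounded and 1579, 1484, 1325, 1441 and 1229.6 after HDW (0.87, SE 0.0968, edgeR adjusted p = 0.000167). The neutrophil chemokine gene CXCL1 rose from 327–599 to 641–793 counts (0.72, adjusted p = 0.00275) and IL1B, the interleukin 1 beta gene, from 1103–1410.1 to 1506–1751 (0.39, adjusted p = 0.00286). The groups did not overlap for these genes. Interferon-stimulated genes went the other way, with 9 of 27 lower and 1 higher and a median of -0.26. IFIT3, an antiviral effector, had 3068, 1576, 1964, 1490.1 and 2343 counts unwounded and 874, 976, 1107, 1005 and 1689 after HDW (-0.89, SE 0.201, adjusted p = 0.00841), and IFIT1 fell by 0.71 (adjusted p = 0.0101). HDW library 5 overlapped the unwounded group for IFIT3. The member that rose, GBP1, which encodes an interferon-induced GTPase, had 172 to 271 counts unwounded and 316 to 402 after HDW (0.79, adjusted p = 0.000671). Without unwounded libraries 3 and 5 only 1 of the list was lower, IFIT3 (adjusted p = 0.047), at a list median of -0.23.

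In the TGF-beta and BMP list, 3 of 15 genes rose and 2 fell. The ligand gene TGFB2, with 34.2% of its exonic bases under another gene, rose from 1323–1658 to 2186–2446 normalized read counts (0.68, edgeR adjusted p = 0.000176) and the receptor gene TGFBR2 from 3209–3912 to 5237–5516 (0.57, adjusted p = 0.000249). ID3, a target of BMP signaling that blocks helix-loop-helix factors, fell from 1291–1772 to 925–1207 (-0.53, adjusted p = 0.00319), and by 0.35 with the length trend taken out. HEY1 was the only 1 of 10 Notch pathway genes past the threshold (-0.58, adjusted p = 0.00773).

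Antioxidant genes mostly fell where they changed. NRF2 target genes were lower in 16 of 30 cases and higher in 1. AKR1C3, an aldo-keto reductase, had 1387, 1183, 1506, 1121 and 1568 normalized read counts unwounded and 778, 814, 735, 812 and 910.0 after HDW (-0.74, SE 0.0967, edgeR adjusted p = 0.000423). AKR1C1 and AKR1C2 fell by 0.53 and 0.63 (adjusted p = 0.000423 and 0.000691), although these 3 genes are close copies, and the carbonyl reductase gene CBR1 fell by 0.49 (adjusted p = 0.00186). NQO1, a quinone reductase and a standard NRF2 target, fell from 4367–5424 to 3398–3959 counts (-0.42, adjusted p = 0.00189). HMOX1, for heme oxygenase 1, went the other way in sign, with 677, 1619, 1220.3, 1780.0 and 1047 counts unwounded and 2222, 2024, 1739, 2118 and 984 after HDW (0.52, SE 0.238, adjusted p = 0.124), and its adjusted p was 0.0288 without HDW library 5, the lowest of its group.

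Genes that ATF4 is known to drive were lower where they changed at all. Of 38, 10 fell and none rose, at a median of -0.13. NUPR1, a stress-induced chromatin protein gene, had 5607, 4207, 5012, 3929 and 5111 normalized read counts unwounded and 2459.6, 2935, 2982, 2911 and 3786 after HDW (-0.66, SE 0.115, edgeR adjusted p = 0.00222). The mitochondrial folate enzyme gene MTHFD2 fell by 0.36, the serine synthesis gene PSPH by 0.42 and the seryl-tRNA synthetase gene SARS1 by 0.30 (adjusted p = 0.0080, 0.0126 and 0.013). SLC7A11, the cystine importer, fell from 8184–9734 to 6962–7914 counts (-0.26, adjusted p = 0.0157), and the value was -0.45 with the length trend taken out. CHAC1, which degrades glutathione, was at 1291 to 1428 counts unwounded and 1340.3 to 1531 after HDW (0.10, SE 0.0623, adjusted p = 0.231). Of 16 ER chaperone and unfolded protein response genes, PDIA6 alone passed the threshold (-0.21, adjusted p = 0.0332, 0.0572 without HDW library 5 and 0.0563 with the length trend taken out), and 25.2% of its exonic bases lie under another gene. The ER chaperone gene HSPA5 had a log2 fold change of -0.13 (SE 0.0959, adjusted p = 0.348).

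Glycolysis and hypoxia response genes fell in 9 of 28 cases and none rose (median -0.14). EGLN3, an oxygen-sensing prolyl hydroxylase induced by hypoxia, had 1237, 1221, 1341, 1236 and 1382 normalized read counts unwounded and 926, 872, 865, 759 and 801 after HDW (-0.60, SE 0.0701, edgeR adjusted p = 0.000209). The glucose transporter gene SLC2A1 had 19307, 19131, 17959, 19082 and 18281 and 14822, 15016, 14272, 14427 and 14332 counts (-0.36, SE 0.0562, adjusted p = 0.00111). The groups were well apart for both genes. The collagen prolyl hydroxylase gene P4HA1 fell by 0.43 (adjusted p = 0.000888). Lipid synthesis was mixed, with 7 of 31 genes higher and 5 lower. The fatty acid elongase gene ELOVL6 rose by 0.39 and the squalene epoxidase gene SQLE by 0.31 (adjusted p = 0.00139 and 0.00356), whereas the sterol desaturase gene SC5D fell from 4558–6082 to 3341–3755 counts (-0.62, adjusted p = 0.000413).

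FOXO-linked growth-restraint genes fell in 5 and rose in 2 of 16 cases, PDK4, described above, being 1 of the risers. TSC22D3, a glucocorticoid-induced leucine zipper gene, had 5769.7, 4634, 4807, 4166 and 5189 normalized read counts unwounded and 2649, 3051, 3019.7, 3038 and 4115 after HDW (-0.63, SE 0.112, edgeR adjusted p = 0.00251), and YPEL3 fell from 784–1014 to 512–702 (-0.58, adjusted p = 0.00235). Few cell-cycle genes changed. Of 24 G1/S and replication genes, CCND1 rose and 3 fell, among them the helicase subunit gene GINS2 (-0.84, adjusted p = 0.0124) and the sliding clamp gene PCNA (-0.26, adjusted p = 0.0389). The adjusted p of PCNA was 0.068 without HDW library 5, and with the length trend taken out it missed the threshold as well (-0.10, adjusted p = 0.219). Of 22 mitotic genes, KIF23 and CENPF rose by 0.65 and 0.94 (adjusted p = 0.00525 and 0.0151) and 1, PTTG1, fell (-0.30, adjusted p = 0.0424). PTTG1 missed the threshold without HDW library 5 (adjusted p = 0.0808) and with the length trend taken out (-0.13, adjusted p = 0.319). Of the histone genes expressed with DNA replication, 1 of 10 fell, H2AC6 (-0.54, adjusted p = 0.00265). Their median moved from -0.19 to -0.0056 with the length trend taken out, and these are short transcripts.

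Heat shock genes were split, with 4 of 14 higher and 3 lower. HSPA6, an inducible chaperone with little expression in unstressed cells, had 99, 147, 153, 230.2 and 127 normalized read counts unwounded and 518, 421, 357, 397 and 142 after HDW (1.27, SE 0.278, edgeR adjusted p = 0.00733). HDW library 5 lay inside the unwounded range, and without it the log2 fold change was 1.47 (adjusted p = 0.000296). HSPA1A rose by 0.40 (adjusted p = 0.018) and the cochaperone gene DNAJB1 fell by 0.26 (adjusted p = 0.00768). HSPA6 and HSPA1A have near-identical copies, HSPA7 and HSPA1B, that may share their reads. All 13 mitochondrially encoded mRNAs rose, at a median of 0.57, and none of their groups overlapped. MT-ND2, a complex I subunit, had 7691, 8105, 7121, 9979.7 and 8028 counts unwounded and 15775, 13735, 13181, 13681 and 11619.9 after HDW (0.73, SE 0.0965, adjusted p = 0.000423), and the ATP synthase subunit gene MT-ATP6 rose by 0.63 (adjusted p = 0.000209). These mRNAs come from 1 small organelle genome, and their rise is the gene-level form of the higher mitochondrial share of the HDW libraries, whose part in other results was not tested.

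These counts were set against libraries that stood apart. Without HDW library 5, 11.9% of all tested genes were higher and 11.1% lower. The number higher was then 12 for the early transcription factors, 11 for the integrins and basement membrane, 13 for the SRF and YAP targets and 10 for the cytokines and NF-kB targets. The number lower without it was 16 for the NRF2 targets, 13 for the ATF4 targets, 13 for the interferon-stimulated genes and 6 for the glycolysis genes. Leaving out unwounded libraries 3 and 5 had more weight than leaving out HDW library 5 for several lists. It left 5, 8, 11 and 10 members of the first lists higher, in that order, and 11, 5, 1 and 4 of the second lower. The number of all genes past the adjusted p fell as well, to 1003 higher and 683 lower (6.25% and 4.25%), with 3 unwounded libraries left. Of the called genes named here, BTC, AREG, IVL, SPRR2D, PLAT, VAV3, RHOC, PSPH, SARS1, PDIA6, GINS2, PCNA, PTTG1, IFIT1, HSPA6, HSPA1A, IL1RL1, KRCC1, VLDLR-AS1, ERG, ZNF239, MUC16, RPL5P17 and VIP then missed it, with edgeR adjusted p from 0.0508 in IL1RL1 to 0.284 in VIP. All 13 mitochondrial mRNAs and 3 wound keratins were higher in each of these fits.

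**Figure D4:**
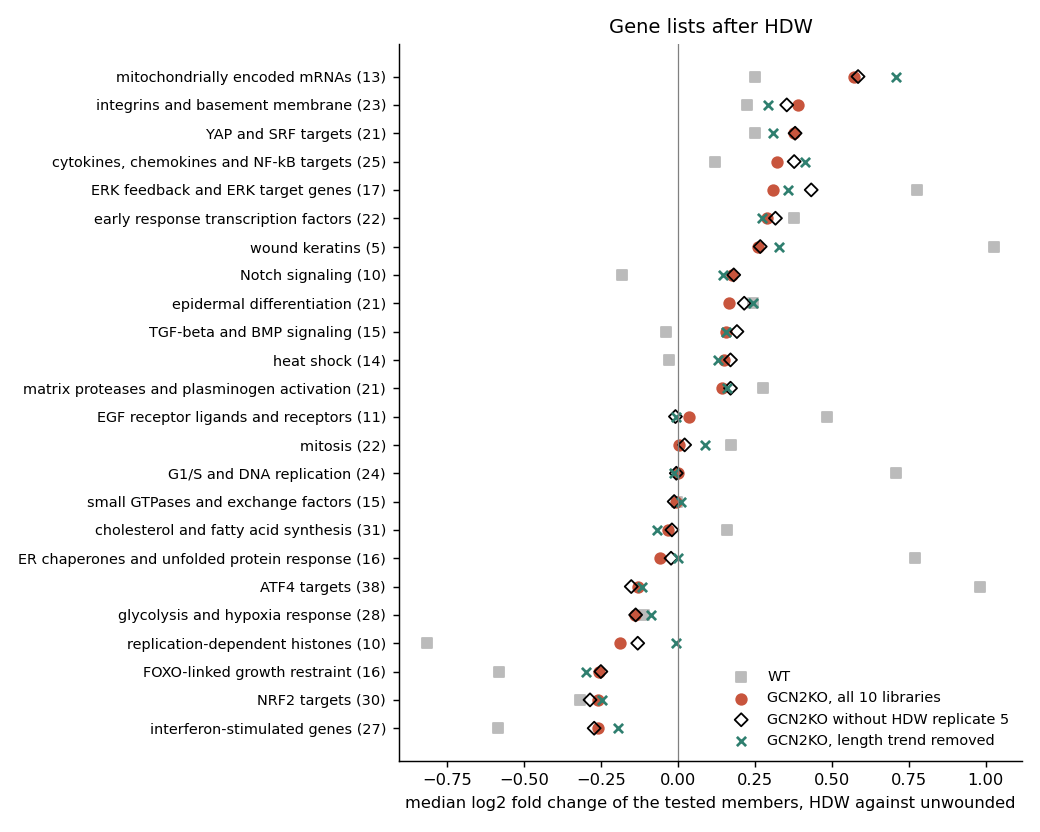
Median log2 fold change (HDW against unwounded) of the tested members of 24 gene lists, with the number of members tested in brackets. Filled circles are GCN2KO cells with all 10 libraries, open diamonds leave out HDW replicate 5, crosses have the length trend removed and squares are WT cells, and the circle and the diamond lie close for most lists while WT differs most for the ATF4 and ER chaperone lists.

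HDW library 5 had the largest spread about its own group, far above the other HDW libraries but only just above the unwounded ones. Over 12299 genes with a mean of at least 50 counts its deviations from the group mean had an SD of 0.202 on the log2 scale, against 0.0846 to 0.15 in the other HDW libraries and 0.16 to 0.198 in the unwounded ones. The sample weights of limma, lower for libraries that vary more, were 0.530 for HDW library 5 and 0.401 and 0.464 for unwounded libraries 3 and 5. The depth of HDW library 5, 29552373 counts, and its mitochondrial share of 0.683% were within the range of its group. It was the lowest HDW library for 30 of the 75 higher DE genes and the highest for 12 of the 31 lower ones. Over the 12299 genes it was the lowest for 4153 and the highest for 4350, which is a similar proportion. Those genes have means of at least 50 counts, whereas 38 of the higher and 28 of the lower DE genes have lower means and lie outside that set. Across the 12299 genes, which are not independent replicates, the deviations of HDW library 5 from its group mean followed those of unwounded library 1 from its own (Pearson r = 0.73), as in FGFR3, EGR1, IFIT3 and WNT4, where both libraries held the highest value of their group.

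Each HDW library was then read over the DE genes found without it. The higher DE genes found without library 5 had a median log2 difference from the unwounded mean of 0.90 in library 5, whereas libraries 1 to 4, treated alike, had 1.22, 1.28, 1.09 and 1.15. For the lower DE genes the median was -0.40 in library 5 and -0.99, -0.89, -0.89 and -0.94 in libraries 1 to 4. Library 5 moved in the same direction as the others on both lists, with a smaller median difference.

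Without it the test returned 86 higher and 59 lower DE genes, 0.539% and 0.37% of the genes tested then. The higher list kept 69 genes, lost 6 and gained 17, so that the shared genes were 92% of the list with all 10 libraries and 80.2% of the list without library 5. The lower list kept 24, lost 7 and gained 35 genes (77.4% and 40.7%). Of the 35 gained lower genes, 15 were past the adjusted p with all 10 libraries, and 32 had been under 2-fold. By adjusted p alone 1630 higher and 1466 lower genes were called both with and without library 5, and no gene was called in opposite directions.

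In the lower genes gained that are named here, library 5 held the highest value of the HDW group. These genes were picked for being lower DE genes only without library 5, so its high value follows largely from that choice. WNT4, a Wnt ligand gene, had 123, 91.5, 82, 64.9 and 86.3 normalized read counts unwounded and 42, 40.5, 45.8, 41.6 and 78.4 after HDW, with a log2 fold change of -0.83 with library 5 and -1.06 without (edgeR adjusted p = 0.0134 and 0.00193). KRCC1 had 994, 685, 919.9, 614 and 1089 and 338, 453, 411, 443 and 728 counts (-0.86 with and -1.07 without, adjusted p = 0.0080 and 0.000874). For both genes unwounded library 1 was among the highest of its group, and HDW library 5 stood apart above the other HDW libraries. The glycine pathway gene DMGDH, IFIT3 and LINC02967 also passed 2-fold only without it (-1.05, -1.08 and -1.02, adjusted p = 0.000815, 0.00163 and 0.00056). Of the higher genes gained, KRT78, SH2D5 and THBS1 went from 0.96, 0.96 and 0.97 to 1.07, 1.04 and 1.04, and were past the adjusted p either way. GP6-AS1 went from 0.96 to 1.03, and the hair keratin-associated gene KRTAP2-3 passed the low-count filter only without library 5 (1.94, adjusted p = 0.00207, 1.58 to 8.65 counts unwounded and 24.9, 19.8, 18.1, 31.2 and 4.96 in HDW libraries 1 to 5).

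The genes lost without library 5 sat near the thresholds. ETV4, an ETS factor gene induced by ERK, went from 1.01 to 0.93 and kept an adjusted p of 0.00886. CAPN3, ERG, ZNF239 and MUC16 went from adjusted p of 0.0249, 0.0276, 0.0354 and 0.0391 to 0.0519, 0.0547, 0.0718 and 0.0673. Among the lower genes lost, USP38-DT and ARHGEF4-AS1 fell under 2-fold (-0.97 and -0.97), and the ribosomal protein pseudogene RPL5P17 and the peptide gene VIP missed the adjusted p (0.0623 and 0.0699). Apart from MUC16 these were weakly expressed, and CAPN3 and VIP share 29.3% and 20.6% of their exonic bases with another gene. HDW library 5 was not the only library with such weight. Leaving out each of the 10 libraries in turn gave 70 to 104 higher and 20 to 59 lower DE genes, with unwounded library 4 behind the highest count of higher genes, HDW library 5 behind the highest count of lower genes and unwounded library 5 behind the lowest.

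The response was set against that of WT cells by the interaction of genotype and HDW over all 20 libraries. In WT cells 402 genes were higher and 238 lower DE genes, 2.62% and 1.55% of 15348 tested, with a biological coefficient of variation of 0.0587 against 0.108 in GCN2KO cells, so counts of calls in the 2 genotypes rest on unequal precision. Of the 106 DE genes of GCN2KO cells, 39 had an interaction past an adjusted p of 0.05, or 36.8%, where 23.7% of all tested genes did. The genes were chosen for their change in GCN2KO cells, a change that is itself 1 side of the interaction, so the 2 percentages are a description. Of the 75 higher DE genes 65 were tested in WT cells, 58 had the same sign there and 49 rose by adjusted p, as 26.1% of all genes tested in WT cells did. The lower DE genes were less often measurable, with 19 of 31 tested in WT cells, 15 of the same sign and 11 lower by adjusted p, against a background of 25.2%. Among the higher DE genes the rise was smaller than in WT cells for 14 and larger for 18, and with the length trend taken out these were 16 and 16.

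**Figure D5:**
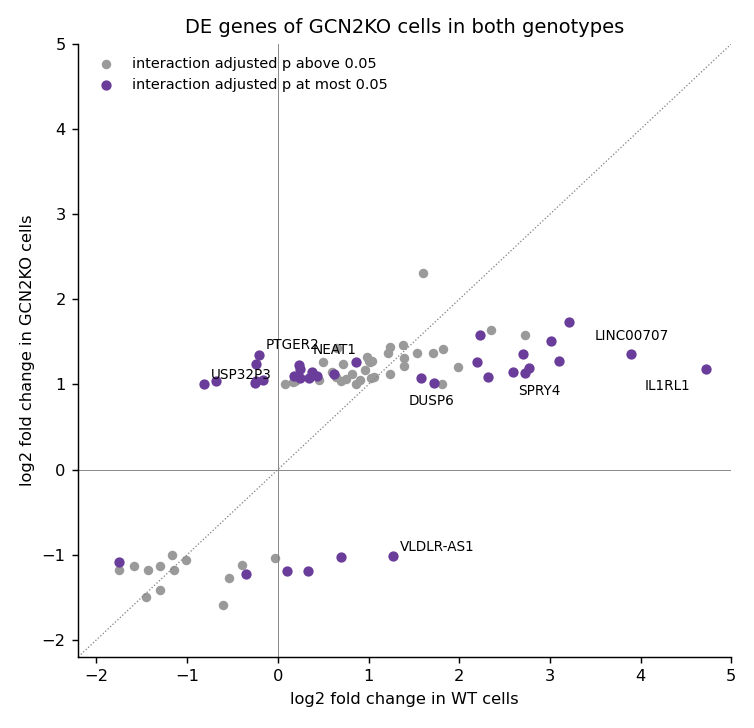
Log2 fold change after HDW in WT cells (horizontal) and in GCN2KO cells (vertical) for the DE genes of GCN2KO cells that were also tested in WT cells, with equal change on the dotted line. Purple points have an interaction adjusted p of at most 0.05, and they lie on both sides of the line, IL1RL1 (4.72 in WT, 1.19 in GCN2KO cells) furthest below it.

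Genes whose rise was smaller in GCN2KO cells included secreted and signaling genes of the wound edge. IL1RL1, the receptor of interleukin 33, went from 9.32–10.4 to 12.1–32.7 normalized read counts in GCN2KO cells (1.19) and rose by 4.72 in WT cells, from 0–1.86 to 22.9–37.2 on the scale of all 20 libraries (interaction -3.54, SE 0.583, edgeR adjusted p = 9.82e-05). LINC00707 went from 50.1–99.5 to 169.7–229 counts (1.36 against 3.89 in WT, interaction -2.55, adjusted p = 2.10e-05). SERPINB2 rose by 1.28 in GCN2KO and 3.10 in WT cells (interaction -1.84, adjusted p = 2.81e-06). The ERK feedback genes SPRY4 and DUSP6 differed by -1.61 and -0.71 (adjusted p = 0.000116 and 3.06e-05). VLDLR-AS1, an antisense gene whose strand the counts may not separate, fell in GCN2KO cells while it rose in WT cells (-1.02 and 1.26, adjusted p of the interaction 6.83e-05).

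Among the DE genes whose rise was larger in GCN2KO cells, VGLL3 had the smallest adjusted p of the interaction. On the scale of all 20 libraries it had 1795–2075 normalized read counts in unwounded and 2009.6–2534 in HDW libraries of WT cells, a log2 fold change of 0.25 (interaction 0.81, SE 0.117, edgeR adjusted p = 2.00e-05). PTGER2, a prostaglandin E2 receptor gene, went from 4.66, 6.31, 8.91, 7.79 and 9.49 to 23.1, 21.5, 15.5, 22.5 and 16.9 normalized read counts in GCN2KO cells, with a log2 fold change of -0.21 in WT cells (interaction 1.55, adjusted p = 0.000195). NEAT1, the long noncoding RNA of paraspeckles, had 1464, 1493, 1564, 2258 and 2544 counts unwounded and 4327, 4259, 4126, 4235 and 3724 after HDW (1.15 against 0.38 in WT, interaction 0.75, adjusted p = 0.00144). NEAT1 is also a very long transcript, and its log2 fold change in GCN2KO cells was 0.76 with the length trend taken out, when its interaction was 0.45 (adjusted p = 0.0974). PDK4 and the pseudogene USP32P3, which lies 99.7% under another gene, differed by 2.98 and 1.82 (adjusted p = 0.00186 and 0.00218) at low counts in GCN2KO cells. Other members of the same pathways did not differ beyond the test, INHBA by 0.0090 (SE 0.124, adjusted p = 0.971) and CCN2 by 0.076 (SE 0.338, adjusted p = 0.90), which does not show that they responded alike.

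Gene lists differed in how the response compared with WT cells. All 16 genes of the ER chaperone list and 33 of 38 ATF4 target genes had a lower response in GCN2KO cells by the interaction, 1 ATF4 target a higher one, and the background was 12.5% lower and 11.2% higher. The median change of the ATF4 targets was 0.98 in WT cells against -0.13 in GCN2KO cells. CHAC1 rose by 2.23 in WT cells (interaction -2.15, edgeR adjusted p = 1.90e-08) and HSPA5 by 1.11 (interaction -1.25, adjusted p = 1.16e-05). All 5 wound keratins responded less in GCN2KO cells, KRT6B by -3.19 (adjusted p = 9.76e-12), and so did 13 of 24 G1/S genes, GINS2 by -3.21 (adjusted p = 4.43e-08). These values compare changes and not levels, and all 5 keratins started higher in GCN2KO cells. KRT6B had 886–1112 normalized read counts in unwounded and 10947–14577 in HDW WT libraries, on the scale of all 20 libraries. Unwounded GCN2KO libraries held 6123–10526 on their own scale. The study also reports that unfolded protein response genes, SLC7A11 and CHAC1 were raised in unwounded GCN2KO cells. In the other direction, 8 of 13 mitochondrially encoded mRNAs and 6 of 16 FOXO-linked genes responded more in GCN2KO cells, and 0 less. The TGF-beta and BMP list had 5 of 15 higher and 0 lower, and the Notch list 5 of 10 higher and 1 lower. The interferon-stimulated genes, with 4 of 27 higher and 0 lower, were near the background, GBP1 differing by 1.42 (adjusted p = 4.27e-08). CXCL1 rose in GCN2KO cells and had -0.69 in WT cells (interaction 1.40, adjusted p = 6.81e-07). The NRF2 list was more even, with 7 higher and 5 lower of 30.

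AP-1 factors bind the consensus TGA(C/G)TCA. FOSL1 and FOSB, described above, encode subunits of such factors, as do FOSL2 and JUNB, which did not pass. The promoters of the DE genes were searched on both strands for the wider pattern TGANTCA. RefSeq promoters of build GRCh38.p14 were used for the 8047 tested genes with exactly 1 listed start, over the 250 bases before it. The wider pattern was present in 4 of 37 higher DE genes (10.8%), 2 of 16 lower DE genes (12.5%) and 4.19% of all. The higher DE genes were FST, SERPINB2, HSPA6 and ZNF239 and the lower ones PAMR1 and USP38-DT, of which FST and PAMR1 were named after their values were seen. The central base was A or T, outside the AP-1 consensus, in SERPINB2 (TGAATCA), FST (TGATTCA) and PAMR1 (TGATTCA). SERPINB2 and HSPA6, whose counts are given above, and FST, which encodes the activin antagonist follistatin (1.44, edgeR adjusted p = 0.000423), are shown with the match in capitals and 20 bases on each side, 5′ to 3′ on the strand of the gene, since these are the strongest of the higher genes that hold it.
SERPINB2, chr18:63887583-63887629, plus strand: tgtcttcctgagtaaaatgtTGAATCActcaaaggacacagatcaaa
FST, chr5:53480449-53480495, plus strand: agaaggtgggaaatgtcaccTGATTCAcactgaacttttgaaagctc
HSPA6, chr1:161524381-161524427, plus strand: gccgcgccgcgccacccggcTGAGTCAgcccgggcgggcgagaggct
HSPA6 held a second match further from its start. The TGACGTCA motif of CREB and ATF factors was present in 1 of 37 higher DE genes, BACH2, in 0 of 16 lower ones and in 3.22% of all, and the CArG box of SRF in 1 higher DE gene, BCL2, in 0 lower ones and in 0.845% of all. A match describes these letters only and shows neither binding nor a cause.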

How the data were processed

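RNA-seq counts of 5 unwounded and 5 HDW cultures each of GCN2KO and WT NTERT keratinocytes were used. Per the labels and the study's methods, the authors trimmed paired-end HiSeq reads with Trimmomatic, aligned them to GRCh38 with STAR, counted reads per gene with featureCounts and deposited raw counts, 1 file per sample, with no pooling or normalization. The annotation release and strand setting of the counting are not given in the sources used here, so reads of overlapping or antisense genes may be mixed. Gene names, lengths and positions came from GENCODE release 44, which matched 56410 of 57500 identifiers.

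Genes were filtered with filterByExpr (minimum count 10, minimum total 15) and tested with edgeR 4.0.16 (TMM, quasi-likelihood test, no covariates, Benjamini-Hochberg adjustment over all genes tested). Log2 fold changes are HDW against unwounded, and normalized read counts are counts divided by TMM-scaled library size relative to the mean of the 10 GCN2KO libraries. The interaction was fitted over all 20 libraries. The length fit removed each library's lowess trend (span 0.30) with transcript length. This is the length of the longest annotated transcript of each gene, and the isoforms expressed here were not measured. limma 3.58.1 and DESeq2 1.42.0, other scalings and filters, a replicate block and leaving out libraries were alternatives. Depth of 17042848 to 34343328 counts limits genes of a few counts. On simulated counts of the GCN2KO comparison over 15611 genes, the test called 93 of 100 genes changed by 1.2 (log2) and 97 of 100 changed by 2, and 10 unchanged genes.

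Members, gene lists and tests were chosen with earlier results of these data known. Named genes were EIF2AK4, the 12 higher and 12 lower DE genes of smallest adjusted p whose groups did not overlap, up to 4 members of each list of smallest adjusted p with the most abundant that did not pass, 5 genes per direction lost or gained without HDW library 5, 5 DE genes per direction of smallest interaction adjusted p, and genes the study names for oxidative stress, RAC1 and cystine. Some of these are described by counts only, and some results are not reported here. Promoters came from RefSeq (GRCh38.p14).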

Additional observations from a re-analysis of the deposited data

Results flagged for a closer look

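Some values lay far from the others of their group, by the gap to the nearest library as a share of the group's range (Dixon's test at 95%). Of 250 groups checked, 2 for each named gene, 19 held such a library, and chance alone gives about 1 in 20 groups. HDW library 5 was that library in 12 of them. It stood above the other HDW libraries in normalized read counts of FGFR3 at 418, EGR1 at 1938, TGM1 at 2945, COL4A2 at 804, IFIT3 at 1689, TSC22D3 at 4115 and WNT4 at 78.4, and below them in NRG1 at 302, KRT6B at 9868, IVL at 12921, HSPA5 at 285592 and TGFB2 at 2186. The others were NLRP10 in HDW library 3 (77.7), FGFR3 in unwounded library 1 (823), HBEGF in unwounded library 1 (691), ADAM8 in unwounded library 4 (138), HEY1 in HDW library 1 (51.4), MUC16 in unwounded library 2 (226) and USP32P3 in unwounded library 1 (4.66).

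The response of 61 named genes differed between genotypes by the interaction (edgeR adjusted p of at most 0.05 over all genes tested). Values are the log2 fold change in GCN2KO cells minus that in WT cells, and they compare changes and not levels. Among early signaling and growth factor genes these were DUSP6 (-0.71), FOSL1 (-0.51), NR4A2 (0.92), SPRY4 (-1.61), PHLDA1 (-1.05), HBEGF (-0.91) and AREG (-1.26). Among keratins and differentiation genes these were KRT6A (-0.78), KRT6B (-3.19), KRT6C (-0.93), KRT17 (-0.67), SPRR2D (-2.57) and KRT78 (-1.28). Adhesion, protease and cytoskeletal genes were ITGB8 (0.74), SERPINB2 (-1.84), PLAUR (-0.88), ADAM8 (-2.57), PLAT (-1.65), TIAM1 (0.51) and RHOC (-0.37). Inflammatory and interferon-induced genes were TNFAIP3 (0.86), CXCL1 (1.40), IL1B (-0.52), IL1RL1 (-3.54), GBP1 (1.42) and PTGER2 (1.55). Amino acid, ER and heat shock genes were MTHFD2 (-1.64), PSPH (-1.12), SARS1 (-0.68), SLC7A11 (-1.90), CHAC1 (-2.15), PDIA6 (-0.77), HSPA5 (-1.25), DNAJB1 (-0.22) and HSPA1A (0.68). Metabolic and mitochondrial genes were AKR1C3 (0.45), ELOVL6 (-0.25), EGLN3 (0.68), P4HA1 (-0.27), DMGDH (-0.98), PDK4 (2.98), MT-ATP6 (0.37) and MT-ND2 (0.31). Cell-cycle, Wnt and BMP-linked genes were GINS2 (-3.21), PCNA (-0.46), WNT4 (0.96) and ID3 (0.77). The remaining genes were MACC1 (0.39), VGLL3 (0.81), BEND3 (0.49), KCNQ5 (-0.66), NLRP10 (-0.95), LINC01376 (0.65), SPX (-1.85), SH2D5 (-0.87), KRCC1 (-0.60), LINC02967 (-0.49), NEAT1 (0.75), USP32P3 (1.82), LINC00707 (-2.55) and VLDLR-AS1 (-2.30). With the length trend taken out MACC1 (0.25), KRCC1 (-0.48), LINC02967 (-0.32) and NEAT1 (0.45) missed the adjusted p (0.117, 0.094, 0.157 and 0.0974), and PCNA moved to -0.31 (adjusted p = 0.00593). SPX did not pass the low-count filter in WT cells, where it had 0.929 to 8.45 normalized read counts on the scale of all 20 libraries, so its difference rests on few counts there. The share of all tested genes with an interaction was 23.7%, and what gave rise to the differences listed here was not tested.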

How the results depend on the processing

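The main counts were 75 higher and 31 lower DE genes, 1880 higher and 1706 lower genes by adjusted p alone, 39 DE genes with an interaction, and 110 higher and 71 lower members of the gene lists. Higher DE genes numbered 114 with no filter on low counts, 37 among genes with a mean of at least 50 counts and 38 with that filter and without HDW library 5. Lower DE genes moved more. They numbered 13 by DESeq2, 85 with no filter, 3 with a mean of at least 50 counts, 54 with all 20 libraries in 1 fit, 20 with libraries thinned to the smallest and 17 without unwounded libraries 3 and 5. Without HDW library 5 they numbered 47 by DESeq2, 63 with DESeq2 size factors, 56 with library size alone, 13 with a mean of at least 50 counts and 55 with the length trend removed. By adjusted p alone, 2840 genes were lower with all 20 libraries in 1 fit, and leaving out unwounded libraries 3 and 5 gave 1003 higher and 683 lower genes and 34 lower list members. Among genes with a mean of at least 50 counts, 22 DE genes had an interaction, since fewer were tested. Apart from the fits with fewer genes or libraries, the cause was not tested.

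Leaving out 1 library at a time gave 70 to 104 higher and 20 to 59 lower DE genes, 1183 to 2332 higher and 887 to 2185 lower genes by adjusted p alone, 34 to 41 interactions, and 86 to 118 higher and 37 to 81 lower list members. For the lower DE genes, unwounded library 4 (47 without it), unwounded library 5 (20) and HDW library 5 (59) each moved the count by over 1.5 times. For lower genes by adjusted p alone and lower list members, unwounded library 5 (972 and 44 without it) and HDW libraries 1 (1074 and 44), 2 (950 and 40) and 3 (887 and 37) did so, and for higher genes by adjusted p alone unwounded library 5 (1245) and HDW libraries 2 (1187) and 3 (1183).

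The deviations of same-numbered unwounded and HDW libraries had Pearson r of -0.63 to 0.043. These values cannot show whether same-numbered cultures were handled together. With the replicate block there were 73 higher and 29 lower DE genes, 1239 higher and 882 lower genes by adjusted p alone, 36 interactions, and 92 higher and 39 lower list members. Without HDW library 5 the replicate block gave 851 higher and 594 lower genes by adjusted p alone and 43 lower list members.

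Of 117 named genes past the adjusted p, 81 were called in every alternative that tested them and 0 changed direction. The log2 fold change of EIF2AK4, near 0 and not called, lay between -0.061 and 0.00199 when 1 library was left out and changed sign without unwounded library 5 (0.00087), without HDW library 2 (0.0020), without unwounded libraries 3 and 5 (0.031), and without HDW library 5 with library size alone (0.0089) or with the replicate block (0.026). Fits that removed a length or GC trend, left out several libraries or combined HDW library 5 with another choice were chosen after seeing the data.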
